A study of Daphnia magna with 9 samples.

Results

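The opsins and the other genes of light detection were followed by RNA-seq through whole adult females of the water flea Daphnia magna. The genes were chosen by name, as those whose annotation mentions opsin, arrestin, transient receptor potential, phospholipase C, retinal, retinol, eyes absent, sine oculis or neither inactivation. The choice gave 99 of the 42462 gene IDs, of which 14965 carry a name. Opsins make up 48 of them, retinoid enzymes 19, transient receptor potential (TRP) channels other than the TRP and TRPL kind 10, and arrestins 6. The arrestin domain-containing proteins, the TRP and TRPL-type channels, the phospholipases C, the nina proteins and the eyes absent homologs number 2 each, and 6 genes fall outside these roles. No gene was found by the words sine oculis.

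The study asked what the DNA methyltransferase gene DNMT3.1 does when food is short. Libraries were made from 3 groups of 3, each library from 5 pooled females of day 12 whose eggs had been removed. The starved wild type was the NIES clone on 8-fold less Chlorella, the starved mutant was a line with frameshift mutations in both copies of DNMT3.1 on the same ration, and the nutrient-rich mutant was the same line on full food. The mutant line descends from a single founder injected as an egg, and the methods name no strain other than the NIES clone. It is 1 line set against another, so that other changes of this line and the mutation cannot be told apart. Wild type on full food was not analysed here, so the effect of food was compared in the mutant alone, and the sources used here do not give the hour of sampling. The methods of the study describe daphnids raised singly and each treatment done in triplicate, and p-values measure the spread between these libraries.

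Opsins are receptors coupled to G proteins that hold a retinal chromophore and start the response of a photoreceptor to light. In the arthropod photoreceptor, best known from Drosophila, the activated opsin acts through a Gq protein on phospholipase C, and the TRP and TRPL channels then open. Arrestins bind the activated opsin and end its signal, and the enzymes of retinoid metabolism make and recycle the chromophore. Daphnia carry a single fused compound eye and a small nauplius eye, and their genomes are known for large opsin families. A photoreceptor is a minor part of a whole daphnid, and in such bulk samples fewer cells of a type and less RNA per cell cannot be told apart.

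The libraries held 9270993 to 11806614 counted reads. Levels are given as CPM (read counts on a common library size), after TMM scaling for differences in composition. The TMM factors were 1.015 to 1.126 in the starved libraries, 0.928 in nutrient-rich mutant replicates 1 and 3, and 0.749 in replicate 2. That replicate stood apart from its group, with a rank correlation over features of 0.90 to replicate 1 and 0.913 to replicate 3, against 0.965 between these. The opsin count and median, and the results of several single opsins, are therefore given with and without it. The transcript of DNMT3.1 (Dapma7bEVm006722t1) was at 85.2, 111 and 79.2 CPM in starved wild type, 87.6, 40.0 and 61.7 CPM in starved mutants and 10.8, 4.40 and 9.69 CPM in nutrient-rich mutants. It was thus still transcribed in the line labelled mutant, and a frameshift need not change the read count, so that this level does not check the labels.

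By name, 22 of the 48 opsins are of the long-wavelength kind, 16 of them named Long-wavelength-like opsin and 5 Opsin Rh6. A further 10 are pteropsins, 5 arthropsins, 3 rhodopsin-7 like opsins and 2 ultraviolet-sensitive opsins, and 6 have other opsin names. The gene ontology term phototransduction is carried by 41 genes of the table, and 39 of these are among the opsins. None of the arrestins, channels or retinoid enzymes of the set carries it. Many opsins are neighbours in the assembly. Scaffold sc01877 carries 12 long-wavelength opsins, sc01253 carries 6 pteropsins and sc02865 carries 4 long-wavelength opsins. Reads of such close copies can be shared between them, the sources used here do not say how the authors placed reads with several matches, and the level of each single copy is uncertain to that extent.

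Opsin expression was concentrated in a few long-wavelength genes. On the length-scaled RPKM values of the authors, averaged over the 9 libraries, Dapma7bEVm018607t1 (Long-wavelength-like opsin, scaffold sc03025) stood first at 294 RPKM. Next came Dapma7bEVm015226t1 (258 RPKM, sc01899), Dapma7bEVm003312t1 (124 RPKM, sc01877) and the Opsin Rh6 gene Dapma7bEVm009912t1 (101 RPKM, sc02861). The 3 highest genes held 68.7% of the summed opsin RPKM. The ultraviolet-sensitive Dapma7bEVm002792t1 had 37.2 RPKM, and no pteropsin, arthropsin or rhodopsin-7 like opsin exceeded 1.41 RPKM. In all, 13 opsins had a mean above 10 RPKM and 26 a mean below 1 RPKM.

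**Figure D1:**
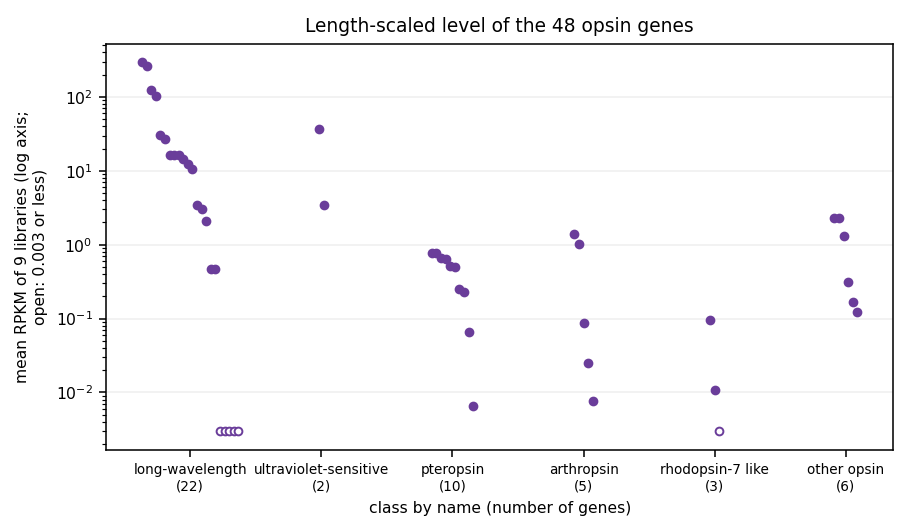
Mean RPKM of each of the 48 opsin genes over the 9 libraries (log axis), grouped by the class in the gene's name, with 1 point per gene and open points for genes at 0.003 RPKM or less. The 4 highest genes are all long-wavelength opsins, led by one at 294 RPKM, and 4 long-wavelength genes had no read.

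Of the 99 genes, 71 passed the filter on low counts and were tested, and the remaining 28 did not exceed 4.11 CPM in any library. The untested genes were 17 opsins, 6 retinoid enzymes, 1 TRP channel of the vanilloid kind, 1 phospholipase C and 3 others. No read fell on 4 of the untested opsins in any library, namely the Opsin Rh6 gene Dapma7bEVm027848t1 and the long-wavelength-like Dapma7bEVm006498t1, Dapma7bEVm021658t1 and Dapma7bEVm021872t1. A count of 0 in 92793103 reads allows a level of up to 0.0323 CPM before TMM scaling, by counting error alone. The untested compound eye opsin BCRH1-like (Dapma7bEVm016717t1) was uneven, with 27 reads in starved mutant replicate 3, 39 reads in nutrient-rich mutant replicate 3, 3 reads in nutrient-rich mutant replicate 2 and 0 reads elsewhere. All 3 rhodopsin-7 like opsins were under the filter.

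Food was compared first, between the starved and the nutrient-rich mutants. In the starved animals 13 of the 16 tested long-wavelength opsins and both ultraviolet-sensitive opsins rose. Of 31 tested opsins 18 rose and 0 fell, by the edgeR quasi-likelihood test with Benjamini-Hochberg adjusted p under 0.05 over all 18675 tested features and a fold change of at least 1.5. Over all tested features 11.1% were called higher and 12.0% lower. With the unadjusted p under 0.05, 20 of the 31 opsins differed, against 6653 of 17748 tested genes of the table (1 feature per gene). DESeq2 and limma-voom likewise called 0 opsins lower. The opsins called higher rose 1.83-fold to 7.85-fold. The median log2 fold change was 1.15 over the tested opsins and -0.07 over all genes. A gene scarce in the nutrient-rich libraries could pass the filter on low counts through the starved ones. Of the 31 tested opsins 19 had at least 1 CPM in all 9 libraries.

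**Figure D2:**
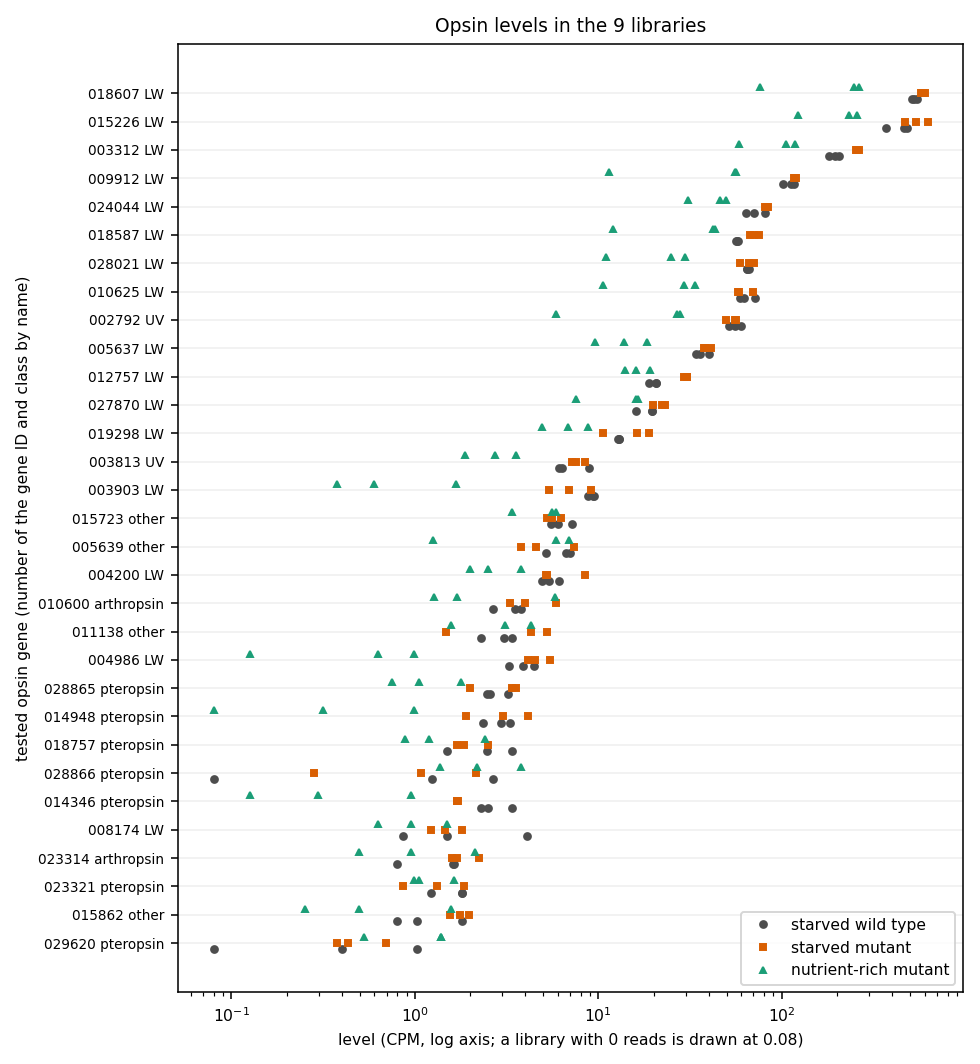
Level of each tested opsin in the 9 libraries (CPM, log axis), with 1 row per gene, 1 point per library and groups told apart by colour and marker. The nutrient-rich libraries lie to the left of both starved groups in most rows of the upper part, and to the left by the widest margin for both Rh6 genes of scaffold sc02865.

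The most abundant opsin, Dapma7bEVm018607t1, was at 510.3, 527 and 545 CPM in starved wild type, 604, 589.5 and 576 CPM in starved mutants and 248, 75.9 and 262 CPM in nutrient-rich mutants. Every nutrient-rich library lay below every starved library, and replicate 2 lay far below the other two. Between starved and nutrient-rich mutants it rose by 1.59 ± 0.38 (SE) on the log2 scale (adjusted p = 0.0144), and by 1.21 without replicate 2 (adjusted p = 3.85e-05). Dapma7bEVm015226t1 had 368, 479 and 463 CPM in starved wild type, 622, 538 and 472 CPM in starved mutants and 258, 122 and 233 CPM in nutrient-rich mutants. Again the nutrient-rich group did not overlap the starved groups. The difference was 1.41 ± 0.27 (SE) in log2 (adjusted p = 0.00506). Dapma7bEVm003312t1 stood at 182, 195 and 205 CPM, 253, 265 and 257 CPM, and 118, 58.5 and 106 CPM in the same order of groups. It rose by 1.45 ± 0.23 (SE) in log2 (adjusted p = 0.00222).

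The fourth opsin by RPKM, the Opsin Rh6 gene Dapma7bEVm009912t1, was at 102, 112 and 116 CPM in starved wild type, 120.0, 118 and 116 CPM in starved mutants and 56.3, 11.4 and 55.7 CPM in nutrient-rich mutants. The starved libraries were close together, and replicate 2 of the nutrient-rich mutants was far below the others. It rose by 1.52 ± 0.46 (SE) in log2 (adjusted p = 0.0403). The call was lost when any 1 of the 6 starved libraries was left out (adjusted p 0.0629 to 0.0973 over those fits and the fit of 6 libraries), whereas without nutrient-rich mutant replicate 2 the difference was 1.07 (adjusted p = 7.82e-05). A second feature of the same gene rose too, by 1.89 ± 0.56 (SE) in log2 (adjusted p = 0.037), and was called in 8 of the 16 alternatives. That call was likewise lost without any 1 of the 6 starved libraries, and without nutrient-rich mutant replicate 2 the difference was 1.39. The neighbour of this gene on sc02861, the Opsin Rh6 gene Dapma7bEVm024044t1, rose by 0.98 ± 0.18 (SE) in log2 (adjusted p = 0.00485).

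The ultraviolet-sensitive opsins moved with the long-wavelength opsins. Dapma7bEVm002792t1 had 55.4, 60.2 and 51.5 CPM in starved wild type, 55.9, 49.9 and 55.6 CPM in starved mutants and 27.9, 5.91 and 26.7 CPM in nutrient-rich mutants. The starved groups overlapped each other and the nutrient-rich group lay below both. It rose by 1.41 ± 0.44 (SE) in log2 (adjusted p = 0.045). This call was lost without any 1 of the 6 starved libraries or nutrient-rich mutant replicate 3, with the replicate block and in the fit of 6 libraries (adjusted p 0.0535 to 0.114), and without replicate 2 the difference was 0.97 (adjusted p = 0.000252). The second gene of this class, Dapma7bEVm003813t1, rose by 1.48 ± 0.28 (SE) in log2 (adjusted p = 0.00472). The summed ultraviolet opsin level was 3.01% to 4.01% of the long-wavelength level in the starved libraries, 3.55% and 3.37% in nutrient-rich mutant replicates 1 and 3, and 2.07% in replicate 2.

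The largest differences were in scarcely expressed Rh6 opsins of scaffold sc02865, which passed the filter on low counts through their starved libraries. Dapma7bEVm003903t1 was at 9.40, 9.50 and 8.75 CPM in starved wild type, 6.94, 9.09 and 5.35 CPM in starved mutants and 0.596, 0.377 and 1.68 CPM in nutrient-rich mutants. It rose by 2.97 ± 0.45 (SE) in log2, a 7.85-fold difference (adjusted p = 0.00174). Dapma7bEVm004986t1 went from 0.993, 0.126 and 0.632 CPM in nutrient-rich mutants to 5.44, 4.16 and 4.49 CPM in starved mutants, with 3.27, 3.90 and 4.47 CPM in starved wild type. Its difference was 2.94 ± 0.48 (SE) in log2 (adjusted p = 0.00241). Both genes kept a clear gap to the nutrient-rich libraries without replicate 2, at 2.64 and 2.50 in log2, and both stayed called in all 16 alternative analyses. The other opsins of this scaffold, Dapma7bEVm016717t1 and Dapma7bEVm027848t1, are the uneven and the undetected gene described above.

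The long-wavelength cluster on scaffold sc01877 was less uniform. Of its 12 genes 10 were tested and 7 rose, from 0.87 ± 0.15 (SE) in log2 for Dapma7bEVm012757t1 (adjusted p = 0.00272) to 1.57 ± 0.30 (SE) for Dapma7bEVm028021t1 (adjusted p = 0.0051). Dapma7bEVm012757t1 had 16.0, 13.96 and 19.1 CPM in nutrient-rich mutants against 30.4, 29.2 and 30.3 CPM in starved mutants. Dapma7bEVm018587t1 and Dapma7bEVm027870t1 did not pass, with log2 differences of 1.12 ± 0.38 (SE) (adjusted p = 0.0604) and 0.70 ± 0.27 (SE) (adjusted p = 0.09), although their nutrient-rich libraries lay below all starved mutant libraries. The first of these passed without nutrient-rich mutant replicate 2, at 0.73 (adjusted p = 0.000327). The weakly expressed Dapma7bEVm008174t1 had overlapping groups and a difference of 0.53 ± 0.59 (SE). Among the called genes of the cluster, Dapma7bEVm010625t1 lost its call without starved mutant replicate 1, 2 or 3 (adjusted p 0.0503 to 0.0616, the fit of 6 libraries included). Dapma7bEVm019298t1 lost it without starved mutant replicate 2 and in the fit of 6 libraries (0.0569 at most), and Dapma7bEVm004200t1 without starved mutant replicate 3, without nutrient-rich mutant replicate 3, with the block and in that fit (0.0981 at most).

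Pteropsins, opsins related to the ciliary type of vertebrate photoreceptors, were low and mixed. Of 7 tested genes 3 rose, all on scaffold sc01253. Of these, Dapma7bEVm014948t1 and Dapma7bEVm014346t1 were scarce in the nutrient-rich libraries. They passed the filter on low counts through the starved libraries, where they were high. Dapma7bEVm014948t1 was at 0.993, 0 and 0.316 CPM in nutrient-rich mutants and at 4.13, 3.00 and 1.90 CPM in starved mutants (log2 difference 2.68 ± 0.71 (SE), adjusted p = 0.0231). Dapma7bEVm014346t1 (1.84 ± 0.54, adjusted p = 0.0358) and Dapma7bEVm028865t1 (1.29 ± 0.39, adjusted p = 0.0378) rested on levels of at most 3.57 CPM and were called in 6 and 5 of the 16 alternatives. Without nutrient-rich mutant replicate 2 the difference of Dapma7bEVm028865t1 was 1.05 and was not called (adjusted p = 0.0552). The call of Dapma7bEVm014948t1 was lost without replicate 1 or 2 of the starved mutants, without replicate 3 of the nutrient-rich mutants and in the fit of 6 libraries (adjusted p 0.0712 at most). The only tested opsins with their highest group mean in the nutrient-rich mutants were the pteropsins Dapma7bEVm028866t1 and Dapma7bEVm029620t1 of the same scaffold, with log2 differences of -1.03 ± 0.98 (SE) and -1.10 ± 0.83 (SE) and overlapping groups.

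No arthropsin was called. Dapma7bEVm010600t1 was at 5.91, 4.004 and 3.28 CPM in starved mutants and 1.69, 5.78 and 1.26 CPM in nutrient-rich mutants. Here nutrient-rich mutant replicate 2 was the highest of its group, unlike in 23 of the 31 tested opsins, where it was the lowest of the 3. The difference was 0.61 ± 0.53 (SE) in log2 (adjusted p = 0.447), and 1.56 without replicate 2 (adjusted p = 0.0087). The 4 tested opsins of other names, Opsin-5 (Dapma7bEVm005639t1) among them, differed by 0.13 to 1.15 in log2 and were not called.

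The opsin count was steady against scaling and tool and less so against the set of libraries. Without nutrient-rich mutant replicate 2 it was 19, of which 17 were among the 18, and the median over the same tested opsins was 1.05. It fell to 11 without starved mutant replicate 2 and to 10 in a fit of the 6 mutant libraries alone, and 10 of the 18 opsins stayed called in all 16 alternatives. Of the 13 opsins with a mean of at least 10 CPM 11 rose (median log2 1.41, and 1.07 without replicate 2), and of the 18 tested opsins below that mean 7 rose (median 0.63). Groups that did not overlap, with all starved mutant libraries above all nutrient-rich ones, were seen for 20 of 31 opsins against 20.0% of all tested features.

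The tests of all 71 tested genes by role, for both comparisons, are shown in the plot of log2 fold changes by role. In the comparison of food 28 of the 71 genes rose and 5 fell, where 23.1% of all features were called in either direction. All starved mutant libraries lay above all nutrient-rich ones for 35 of the 71 and below for 8, against 20.0% and 20.3% of all features. The 28 genes that rose were 18 opsins, 4 arrestins, both channels of the TRP and TRPL kind, 1 nina protein, 1 other TRP channel, 1 retinoid enzyme and 1 further receptor.

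**Figure D3:**
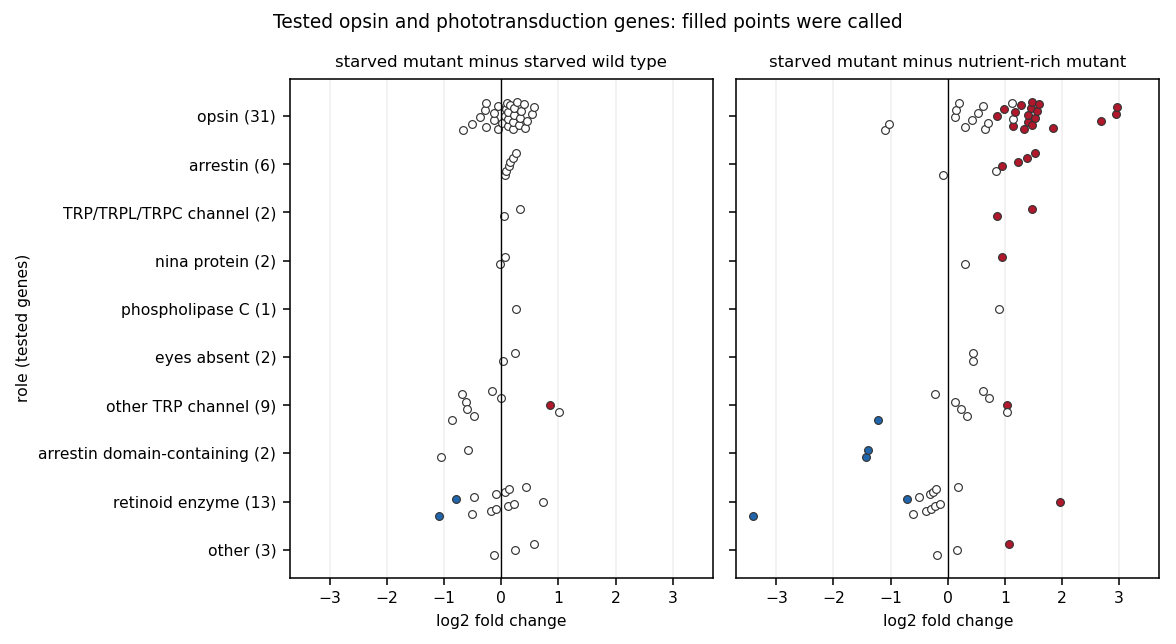
Log2 fold change of each of the 71 tested genes by role, for starved mutant minus starved wild type (left) and starved mutant minus nutrient-rich mutant (right). Filled points passed adjusted p under 0.05 and a 1.5-fold change (red higher, blue lower), and vertical scatter within a role carries no meaning. Most filled red points on the right are opsins and arrestins, and 3 points are filled on the left.

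Arrestins, which quench the activated opsin, followed the opsins. Of the 5 genes named arrestin homolog 4 rose, and these 4 stayed called in every alternative. Dapma7bEVm009989t1 was at 179.8, 180.1 and 171 CPM in starved wild type, 187, 189.9 and 185 CPM in starved mutants and 95.2, 54.8 and 89.7 CPM in nutrient-rich mutants. Starved libraries of both lines fell within a narrow band above every nutrient-rich library. It rose by 1.23 ± 0.19 (SE) in log2 (adjusted p = 0.00208). Dapma7bEVm004787t1 (0.95 ± 0.12, adjusted p = 0.000853), Dapma7bEVm002395t1 (1.38 ± 0.17, adjusted p = 0.00073) and Dapma7bEVm005195t1 (1.53 ± 0.26, adjusted p = 0.00316) rose likewise. Beta-arrestin-1 (Dapma7bEVm003285t1), a regulator of many receptors outside the eye, had 28.6, 35.5 and 30.1 CPM in starved mutants and 31.4, 40.2 and 28.6 CPM in nutrient-rich mutants, and its groups overlapped (log2 difference -0.09 ± 0.16 (SE), adjusted p = 0.736).

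The 5 arrestin homologs together had 415.5 to 420.5 CPM in starved wild type, 434 to 457 CPM in starved mutants, and 226, 156 and 222 CPM in nutrient-rich mutants. The 48 opsins together had 1633, 1785 and 1785 CPM, then 2128, 2002 and 1919 CPM, and then 948, 411 and 932 CPM. Both sums separated the nutrient-rich from the starved libraries, and both were lowest in nutrient-rich mutant replicate 2. The 2 opsins of highest RPKM held 51.1% to 58.1% of the summed opsin RPKM in every library, lowest in that replicate.

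Sums over markers of other tissues were set beside these. The 47 neuron markers together had 1067 to 1099.8 CPM in starved wild type, 1093 to 1131 CPM in starved mutants and 963, 1112 and 966 CPM in nutrient-rich mutants, and 6 of the 38 tested rose with starvation and 0 fell (median log2 0.16), 9 and 2 without replicate 2 (median 0.26) and 13 and 0 with library totals. The 27 muscle markers together had 14464 to 15773 CPM, 15503 to 16315 CPM, and 9367, 12612 and 9446 CPM in the same order, and 7 of 21 tested rose and 0 fell (median 0.70), 8 and 0 without replicate 2 (median 0.49) and 12 and 0 with library totals. The background over all features was 11.1% higher and 12.0% lower in the main fit. Without nutrient-rich mutant replicate 2 it was 2778 higher and 2732 lower of 19358. With library totals it was 3446 higher and 1138 lower of 18675, so the marker counts of that fit stand against a larger share of higher calls. The muscle marker sum was also lower in the nutrient-rich mutants. Within that group it was highest in replicate 2, where the opsin sum was lowest. Of the neuron markers 2 and of the muscle markers 4 had no read in any library. The photoreceptor genes ninaC and histidine decarboxylase and the chaoptin gene Dapma7bEVm007201t1, each given below, were not called higher with starvation, and the last was called lower. The part of tissue proportions in the opsin result was not tested.

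**Figure D4:**
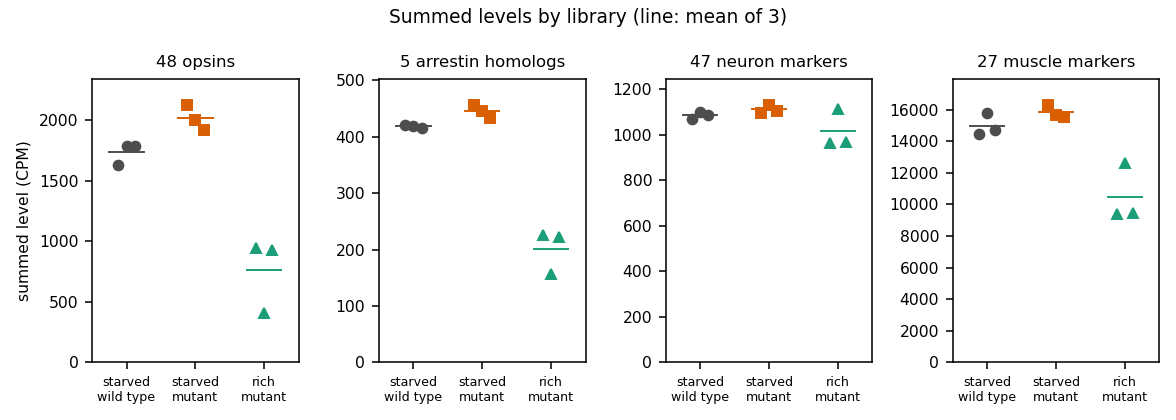
Summed levels (CPM, axes from 0) of the 48 opsins, the 5 arrestin homologs, 47 neuron markers and 27 muscle markers, with 1 point per library and a line at each group's mean. Opsin and arrestin sums are lowest in the nutrient-rich mutants and lowest of all in replicate 2 (411 and 156 CPM), the library with the highest neuron and muscle sums of its group.

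Both channels of the TRP and TRPL kind, a class that here includes a TRP-gamma gene, also rose. The transient receptor potential gene Dapma7bEVm002570t1 was at 28.5, 22.5 and 25.5 CPM in starved wild type, 25.4, 29.6 and 23.8 CPM in starved mutants and 14.7, 12.7 and 15.6 CPM in nutrient-rich mutants. It rose by 0.87 ± 0.16 (SE) in log2 (adjusted p = 0.00395), and the call held in all alternatives. The transient receptor potential-gamma gene Dapma7bEVm006756t1 was near 1 CPM and rose by 1.48 ± 0.38 (SE) (adjusted p = 0.0194). It lost the call without replicate 1 or 3 of the starved mutants, without replicate 3 of the nutrient-rich mutants and under the filter of at least 1 count (adjusted p 0.0749 at most). NinaG, an oxidoreductase that in Drosophila takes part in making the chromophore, here Dapma7bEVm003129t1, had 24.8, 21.6 and 21.3 CPM in starved mutants and 11.9, 14.1 and 9.16 CPM in nutrient-rich mutants. It rose by 0.95 ± 0.17 (SE) in log2 (adjusted p = 0.00445). The second nina gene, ninaC (Dapma7bEVm010559t1), had overlapping groups (0.30 ± 0.24 (SE), adjusted p = 0.404).

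The tested phospholipase C, an inactive-like protein (Dapma7bEVm011222t1), was at 4.22, 3.93 and 5.44 CPM in starved mutants and 1.79, 2.26 and 3.26 CPM in nutrient-rich mutants, and just missed the threshold (0.89 ± 0.29 (SE), adjusted p = 0.0513). The eyes absent homologs, transcriptional cofactors of eye development, differed by 0.45 ± 0.18 (SE) for Dapma7bEVm009955t1 (adjusted p = 0.11) and 0.44 ± 0.23 (SE) for Dapma7bEVm012190t1 (adjusted p = 0.192). Both passed without nutrient-rich mutant replicate 2, at 0.65 (adjusted p = 0.00535) and 0.64 (adjusted p = 0.0242). Retinal degeneration B (Dapma7bEVm010803t1), a phosphatidylinositol transfer protein of the Drosophila photoreceptor, differed by 0.16 ± 0.13 (SE) (adjusted p = 0.413). The class A rhodopsin-like receptor Dapma7bEVm010844t1 rose by 1.07 ± 0.35 (SE) at the edge of the threshold (adjusted p = 0.05) and was called in 5 of the 16 alternatives.

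The retinoid enzymes were called at shares near those of all features. Of 13 tested 1 rose and 2 fell, against 11.1% and 12.0% of all features, with a median log2 fold change of -0.29. Those called lower were 4 without nutrient-rich mutant replicate 2 and 1 with library totals, fits in which the background given above for the markers differs too. Retinol dehydrogenase 14 (Dapma7bEVm000971t1), of a family that interconverts retinol and retinal, was at 9.09, 10.7 and 6.28 CPM in starved wild type, 4.97, 3.62 and 3.63 CPM in starved mutants and 38.3, 56.1 and 34.6 CPM in nutrient-rich mutants. All 3 groups stood apart, with the starved mutants lowest. The gene fell by 3.40 ± 0.28 (SE) on the log2 scale in starved against nutrient-rich mutants (adjusted p = 0.000119), and its second feature fell too. It stayed called in all alternatives of this comparison.

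Retinal dehydrogenase 2 (Dapma7bEVm000559t1), an aldehyde dehydrogenase that oxidises retinal, had 108, 108 and 103 CPM in starved wild type, 99.3, 103 and 97.1 CPM in starved mutants and 166, 166 and 161 CPM in nutrient-rich mutants. Its libraries lay close together within each group. It fell by 0.72 ± 0.10 (SE) in log2 (adjusted p = 0.00126), a call lost when libraries were scaled by their totals (adjusted p = 0.059, with adjusted p over all alternatives up to that value). The second feature of this gene was not called, with a difference of -0.58 ± 0.13 (SE) just under the fold threshold (adjusted p = 0.0103), and passed in 6 of 16 alternatives. Retinol dehydrogenase 11-like (Dapma7bEVm015327t1) was low, at 2.63, 2.46 and 2.68 CPM in starved mutants and 0.695, 0.754 and 0.526 CPM in nutrient-rich mutants, and rose by 1.96 ± 0.34 (SE) (adjusted p = 0.00325). The other abundant enzymes were not called. Epidermal retinol dehydrogenase 2 (Dapma7bEVm004382t1) differed by -0.60 ± 0.21 (SE) (adjusted p = 0.0644), and it passed without nutrient-rich mutant replicate 2 at -0.69 (adjusted p = 0.0316). Retinal dehydrogenase 1 (Dapma7bEVm000923t1) differed by -0.50 ± 0.18 (SE) (adjusted p = 0.0697) and passed in the same fit at -0.66 (adjusted p = 0.00521).

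Among the TRP channels of heat, touch and chemical senses, painless, a channel for noxious heat in Drosophila, was lower and pyrexia higher in starved mutants. Painless (Dapma7bEVm006181t1) was at 37.3, 31.1 and 36.6 CPM in starved wild type, 22.5, 16.5 and 18.8 CPM in starved mutants and 55.0, 29.2 and 50.1 CPM in nutrient-rich mutants. The starved mutants lay below every library of the other groups. It fell by 1.22 ± 0.24 (SE) in log2 against nutrient-rich mutants (adjusted p = 0.00601), a call lost when scaled by library totals (adjusted p = 0.051). The most abundant channel of the set, the TRPM homolog Dapma7bEVm000154t1, differed by 0.13 ± 0.12 (SE) (adjusted p = 0.477).

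Pyrexia (Dapma7bEVm004527t1), a channel that in Drosophila opens at high temperature, was at 28.6, 30.3 and 24.1 CPM in starved wild type, 45.5, 57.6 and 45.9 CPM in starved mutants and 28.8, 18.7 and 25.3 CPM in nutrient-rich mutants. The starved mutants stood above both other groups, which overlapped. It rose by 1.03 ± 0.19 (SE) in log2 in the comparison of food (adjusted p = 0.00439). The neighbouring pyrexia genes of scaffold sc00248, Dapma7bEVm005445t1 and Dapma7bEVm027906t1, were not called (0.73 ± 0.30, adjusted p = 0.111, and 0.62 ± 0.51, adjusted p = 0.425), nor were Dapma7bEVm006179t1 (0.24 ± 0.32) and Dapma7bEVm011223t1 (-0.22 ± 0.45) on other scaffolds.

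The arrestin domain-containing 17-like genes Dapma7bEVm027369t1 and Dapma7bEVm009458t1, neighbours on scaffold sc00715, belong to the alpha-arrestins and not to the visual arrestins. The first was at 13.2, 15.1 and 9.51 CPM in starved wild type, 10.1, 3.54 and 4.49 CPM in starved mutants and 15.2, 13.5 and 20.1 CPM in nutrient-rich mutants. They fell by 1.43 ± 0.38 (SE) and 1.40 ± 0.34 (SE) in log2 (adjusted p = 0.0243 and 0.0163). Both calls were lost without starved mutant replicate 2 or 3 and with library totals, and that of the first also without nutrient-rich mutant replicate 3 and in the fit of 6 libraries (adjusted p 0.0957 and 0.0644 at most).

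**Figure D5:**
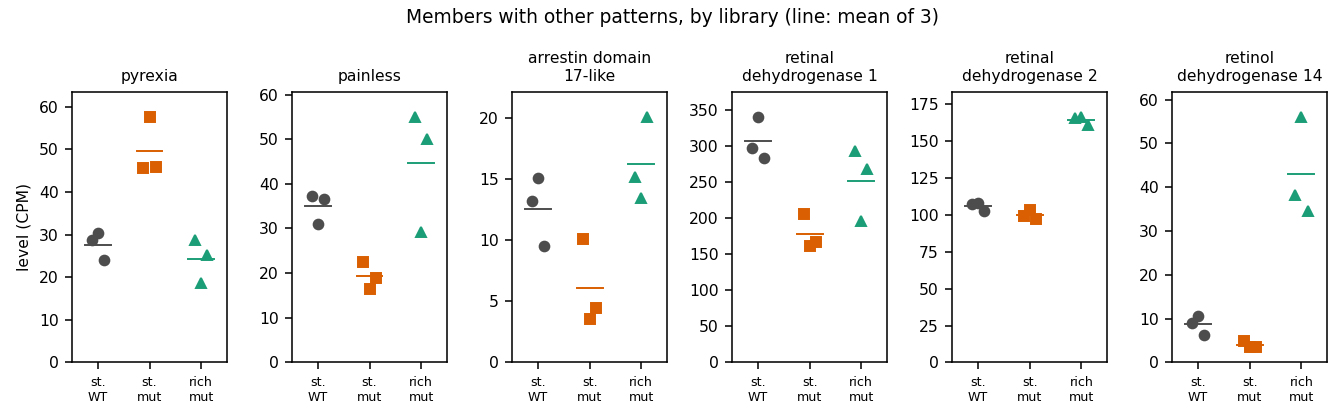
Levels (CPM, axes from 0) of 6 genes whose pattern differed from the opsins, by library, with a line at each group's mean (st. WT, starved wild type, st. mut, starved mutant, rich mut, nutrient-rich mutant). Pyrexia is highest and painless lowest in the starved mutants, and retinol dehydrogenase 14 is at 34.6 CPM or more in the nutrient-rich mutants and at 10.7 CPM or less in both starved groups.

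The second comparison set the mutant line against the wild type, both starved. Between starved mutants and starved wild type 0 of the 31 tested opsins were called, where 2.92% of all tested features were called higher and 4.24% lower. With the unadjusted p under 0.05 there was 1 opsin, against 3488 of 17748 tested genes of the table (1 feature per gene). DESeq2 called 0 opsins, and limma-voom called 0 higher and 2 lower. The median over the tested opsins was 0.11 in log2, the range -0.67 to 0.58, and the median over all genes 0.00. The comparison shares the starved mutant libraries with that of food.

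The opsin with the smallest p was Dapma7bEVm012757t1 of the sc01877 cluster, at 20.6, 20.5 and 18.9 CPM in starved wild type and 30.4, 29.2 and 30.3 CPM in starved mutants. The groups did not overlap and each was tight. Its adjusted p was 0.0434, and the log2 difference of 0.58 ± 0.14 (SE) fell just under the fold threshold. It was called in the fit of the 6 starved libraries and also, at 0.59 (adjusted p = 0.00456), once replicate 2 of the nutrient-rich mutants was left out. For the abundant Dapma7bEVm018607t1 and Dapma7bEVm015226t1 the differences were 0.16 ± 0.37 (SE) and 0.32 ± 0.26 (SE) (adjusted p = 0.874 and 0.596). Without nutrient-rich mutant replicate 2 they were 0.17 and 0.33 (adjusted p = 0.105 and 0.126). In that fit Dapma7bEVm003312t1 differed by 0.42 (adjusted p = 0.00964, and 0.378 with the replicate). Dapma7bEVm018587t1 differed by 0.32 (adjusted p = 0.0155, and 0.742 with it). Both stayed under the fold threshold. The mutants lay above wild type in every library for 7 of the 31 opsins and below for 1, where 20.1% and 21.1% of all features did so. Over all 31 opsins the 7 are thus close to the share of all features. These 7 were all among the 13 opsins with a mean of at least 10 CPM, of which 11 had a positive difference. The shares among all features of that mean level were not computed. A positive difference was seen for 21 of the 31 opsins, against 8803 of 17748 tested genes. The summed opsin level was 1918.5 to 2127.9 CPM in starved mutants and 1633.0 to 1785.4 CPM in starved wild type. No arrestin, nina protein or channel of the TRP and TRPL kind was called either.

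Of all 71 tested genes 1 rose and 2 fell in the mutant, where 7.16% of all features were called in either direction. Pyrexia (Dapma7bEVm004527t1) rose by 0.85 ± 0.19 (SE) in log2 (adjusted p = 0.0289). Other genes of that name were not called and differed in sign. Dapma7bEVm006179t1, the most abundant of these, was at 46.0, 50.6 and 45.3 CPM in starved wild type and 38.2, 20.5 and 29.0 CPM in starved mutants, with no overlap (-0.69 ± 0.32 (SE), adjusted p = 0.274), and it passed as lower without nutrient-rich mutant replicate 2 (adjusted p = 0.0475) and with limma-voom (adjusted p = 0.00264). Dapma7bEVm005445t1 (-0.48 ± 0.29) was also lower in every mutant library, while the groups of Dapma7bEVm011223t1 (-0.61 ± 0.44) and Dapma7bEVm027906t1 (1.01 ± 0.52) overlapped. Retinal dehydrogenase 1 (Dapma7bEVm000923t1), the most abundant retinoid enzyme, went from 298, 341 and 284 CPM in starved wild type to 206, 161 and 167 CPM in starved mutants, with 293, 196 and 268 CPM in nutrient-rich mutants. The starved groups did not overlap, and it fell by 0.79 ± 0.18 (SE) (adjusted p = 0.0312). Retinol dehydrogenase 14 (Dapma7bEVm000971t1) fell by 1.09 ± 0.27 (SE) (adjusted p = 0.0446), and its second feature was not called (-0.89, adjusted p = 0.232) but passed when replicate 2 of the nutrient-rich mutants was left out (adjusted p = 0.0498). All 3 calls were fragile. Each was lost without starved wild type replicate 1 or 2 or starved mutant replicate 2 or 3, those of pyrexia and retinal dehydrogenase 1 also without starved wild type replicate 3 and with the replicate block, that of retinal dehydrogenase 1 with library totals, and that of retinol dehydrogenase 14 without nutrient-rich mutant replicate 1 or 3. The adjusted p reached 0.123, 0.149 and 0.18. Painless just missed the threshold (-0.86 ± 0.24 (SE), adjusted p = 0.063).

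Starved wild type was also set against nutrient-rich mutants, a comparison chosen after the values were seen, in which line and food differ together and cannot be told apart. It shares the nutrient-rich libraries with the comparison of food. Of 31 opsins 13 were called higher and 0 lower (median log2 0.98), and of all tested features 7.67% higher and 6.28% lower, 13.9% in all. Without starved wild type replicate 1, 2 or 3 the count was 5, 5 and 6, in the fit of the 6 libraries it was 6, and without nutrient-rich mutant replicate 2 it was 15. Dapma7bEVm018607t1 differed by 1.43 ± 0.38 (SE) and Dapma7bEVm003903t1 by 3.34 ± 0.45 (SE). The 4 arrestin homologs were called here as well, 3 of them without starved wild type replicate 1. Retinol dehydrogenase 14 (Dapma7bEVm000971t1) was lower in starved wild type by 2.31 ± 0.27 (SE) in log2.

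Genes that work beside these in the eye and the clock were taken from 5 lists of names. In the list of phototransduction machinery outside the rule 5 of 52 tested genes rose and 1 fell with starvation in the mutant, against 11.1% and 12.0% of all features. Without nutrient-rich mutant replicate 2 the counts were 8 and 3, and with library totals 15 and 1. The shares of all features shift in these fits too, as given above for the markers. G protein-coupled receptor kinase 1 (Dapma7bEVm023022t1), of a family that phosphorylates activated receptors, rose by 0.67 ± 0.15 (SE) in log2 (adjusted p = 0.0115), a call lost without starved mutant replicate 3. Head-specific guanylate cyclase (Dapma7bEVm009873t1) rose by 0.68 ± 0.13 (SE) (adjusted p = 0.00614). The Gq alpha subunit (Dapma7bEVm015409t1), which relays the opsin signal, and the 2 eye-specific diacylglycerol kinases, named here after their values were seen, differed by -0.15, -0.03 and 0.09 in log2 and were not called.

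Chaoptin, an adhesion protein of photoreceptor membranes in Drosophila, did not follow the opsins. The gene Dapma7bEVm007201t1 was at 25.9, 21.4 and 24.7 CPM in starved wild type, 7.04, 3.23 and 4.40 CPM in starved mutants and 19.6, 15.3 and 19.5 CPM in nutrient-rich mutants. The starved mutants lay far below both other groups. It fell by 2.30 ± 0.27 (SE) in log2 against starved wild type (adjusted p = 0.0019) and by 1.90 ± 0.27 (SE) against nutrient-rich mutants (adjusted p = 0.00131). A second gene of that name (Dapma7bEVm002994t1) differed by 0.18 and 0.30 and was not called. Histidine decarboxylase (Dapma7bEVm001437t1), which makes the transmitter of arthropod photoreceptors, differed by 0.42 with starvation (adjusted p = 0.147), and 0 of the 2 tested histamine genes were called.

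In the clock list 3 of 18 tested genes rose with starvation and 2 fell, against the same 11.1% and 12.0%. The counts were 7 and 2 without nutrient-rich mutant replicate 2, and 7 and 1 with library totals, fits in which the shares of all features shift as well. Period (Dapma7bEVm010023t1), a core repressor of the circadian clock, was at 237, 265 and 253 CPM in starved wild type, 275, 239 and 249 CPM in starved mutants and 127, 111 and 125 CPM in nutrient-rich mutants. It rose by 1.07 ± 0.12 (SE) in log2 (adjusted p = 0.000456), and vrille (Dapma7bEVm024382t1), a clock transcription factor, by 1.0 ± 0.23 (SE) (adjusted p = 0.0122). The part of the hour of sampling was not tested. Pigment dispersing hormone (Dapma7bEVm003439t1), a neuropeptide of clock neurons, fell by 1.28 ± 0.28 (SE) (adjusted p = 0.00927), and by 1.29 ± 0.28 (SE) against starved wild type (adjusted p = 0.0235).

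The lists of eye development and of screening pigments held few calls. Of 26 tested eye development genes 0 rose and 1 fell with starvation, protein glass-like (Dapma7bEVm023382t1, -0.65 ± 0.15 (SE), adjusted p = 0.0135), whose call was lost without starved mutant replicate 1 or 2 or nutrient-rich mutant replicate 2, with library totals and with limma-voom. Without that nutrient-rich library 2 genes of this list rose and 0 fell, and with library totals 3 rose and 0 fell. Of 16 tested pigment genes 3 rose and 2 fell, 3 and 3 without nutrient-rich mutant replicate 2 and 5 and 1 with library totals. The background for all these lists in the main fit is the 11.1% and 12.0% of features called in each direction. Without nutrient-rich mutant replicate 2 it is 2778 higher and 2732 lower of 19358 features. With library totals it is 3446 and 1138 of 18675. Both xanthine dehydrogenases of scaffold sc00056, enzymes that also serve purine breakdown, rose by 1.04 ± 0.16 (SE) (Dapma7bEVm029387t1, adjusted p = 0.00211) and 0.91 ± 0.18 (SE) (Dapma7bEVm015074t1, adjusted p = 0.00637). In the comparison of lines 0 genes of these last lists and of the histamine list were called, against 1 higher and 1 lower in each of the phototransduction and clock lists. Without nutrient-rich mutant replicate 2 the phototransduction list gave 2 higher and 4 lower, the clock list 2 and 1, eye development 1 and 0, and the pigment list 0 and 2. Over all features 1206 were then called higher and 1472 lower of 19358, against 546 and 791 of 18675 in the main fit.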

How the data were processed

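RNA of 9 libraries, 3 per group, was analysed. Per the labels and the methods of the study, the authors sequenced poly(A) RNA, aligned them in CLC Genomics Workbench to the wFleaBase genome and deposited the count of reads per gene, not normalized, beside RPKM values. The deposited RPKM served for comparing levels between genes. The tables of the authors' own comparisons, with fold changes and FDR p-values, were not used. Replicate 1 of the nutrient-rich mutants is named differently in the count and RPKM columns, and was matched by name.

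The deposited counts of 47109 features went into edgeR 4.0.16 under R 4.3.3 (TMM, filterByExpr, quasi-likelihood F-test, 1 fit of 9 libraries), and a call needed both a Benjamini-Hochberg adjusted p below 0.05 over 18675 features and a 1.5-fold change. CPM are counts scaled by TMM, and the most abundant feature stands for each of 19 members with several features. Median log2 values over all genes take 1 feature per gene. Alternatives were library totals, RLE size factors, DESeq2 1.42.0, limma-voom with quality weights (limma 3.58.1), a filter of at least 1 count, the 6 libraries of the comparison, the replicate number as a block, and leaving out each library. The fits were tested on simulated data.

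Members, lists and alternatives were chosen with earlier results of these data known, and lists are given by counts with no test. Named are the members called in either planned comparison (30 at most, by adjusted p), the 3 of highest mean CPM of each role, and up to 4 called genes of each list. Further genes were named for their place in a class or cluster after their values were seen. Depth limits low genes, since intervals and limits cover counting error only. None of the member IDs was found in the RefSeq gene table, and no sequence is shown.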

Additional observations from a re-analysis of the deposited data

How the results depend on the processing

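Depth limits the statements on the 28 untested genes and on opsins under 10 CPM. Over the 53 named genes and both planned comparisons, 1696 alternative values were computed and none changed sign while called. Of the values for food 766 kept their side of the threshold, 65 lost the call and 17 gained it, and of those for mutant against wild type 792, 37 and 19. The cause of these changes was not tested, except that fits of fewer libraries hold fewer samples.

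For starved mutants against starved wild type 1337 features were called, and 2117 with DESeq2, 4181 with limma-voom, 2593 in the fit of 6 libraries and 515 to 2678 when 1 library was left out. Members called higher, 1 in the report, were 4 with limma-voom, 2 with 6 libraries, 0 with the replicate block and 0 to 2 when 1 library was left out. Members called lower, 2 in the report, were 1 with library totals, 8 with limma-voom and 0 to 4 when 1 library was left out. For starved against nutrient-rich mutants 4319 features were called, 2927 to 5510 when 1 library was left out. Members called higher, 28, were 20 to 31, and members called lower, 5, were 4 to 8, and 1 with library totals. For starved wild type against nutrient-rich mutants 2605 features were called, 1550 with 6 libraries and 1070 to 3168 when 1 library was left out. Members called higher, 21, were 12 with 6 libraries and 9 to 24, and members called lower, 3, were 1 with library totals and 2 to 4.

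Scaling by library totals moved the median of all genes to 0.30 in log2 for food, with 3446 features higher and 1138 lower against 2078 and 2241, and 34 members higher. For mutant against wild type the split became 626 and 589 against 546 and 791, and for the added comparison 2123 and 448 against 1432 and 1173. The opsin median for food was then 1.53, above that shift.

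Replicate numbers mark no shared culture or day in the labels. Deviations of equal numbers correlated by -0.104 to -0.00755 between starved groups and 0.00728 to 0.177 between mutants. Unequal numbers gave -0.0913 to 0.15 and -0.18 to 0.127. Deviations within a group of 3 depend on each other, so these values cannot settle whether the numbers pair the samples. With the replicate block 1036 and 3814 features were called, and 14 opsins were higher with starvation.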
